A study of Rattus norvegicus with 10 samples.

Results

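S100 proteins are small calcium-binding proteins of the EF-hand type that act inside the cell by binding target proteins, and some are secreted and act on cell surface receptors. S100A4 is known for binding non-muscle myosin and for its link with cell motility, and it is often used as a marker of fibroblasts and of cells that leave the epithelial state. Most S100 genes lie side by side in 1 cluster, which in the rat is on chromosome 2. The question here was whether the higher S100a4 RNA of FoxE1-silenced thyroid cells was shared by the other members of its family. The set held 10 genes (S100a1, S100a3, S100a4, S100a5, S100a6, S100a10, S100a11, S100a13, S100b and S100g) of the 15154 that the arrays named by transcript accession, with 12 of 30367 probes. S100a4 was selected on its siFoxE1 over reference ratios in these arrays, which are therefore described with no test. The others are genes of its family, chosen with earlier results of these data known. S100a16, also of the family and tested in both comparisons, is no member.

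PCCl3 is a line of differentiated rat thyroid follicular cells, and FoxE1 is a forkhead transcription factor of the thyroid. In siFoxE1 PCCl3, cells had been transfected with 25 nM of an siRNA pool against FoxE1. In siScramble PCCl3 they had received a non-silencing siRNA, and wt PCCl3 were untreated. RNA was taken after 48 h and hybridised to 10 rat arrays with 2 dyes, 5 for siFoxE1 PCCl3 vs siScramble PCCl3 and 5 for siFoxE1 PCCl3 vs wt PCCl3. In each comparison 4 arrays held individual cultures from independent silencing experiments, with siFoxE1 in Cy5 and the reference in Cy3, and 1 array held pooled RNA of the same cultures with the dyes swapped, so n is 4 cultures. The siFoxE1 extracts served both comparisons, which are therefore not independent. All 3 conditions come from 1 cell line, and an array of RNA from a culture cannot tell a change in every cell from a change in a few.

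Foxe1 itself was below its reference on 10 of 10 arrays, with log2 ratios of -1.19 to -0.34. Of 12 thyroid follicular cell markers 9 were tested in both comparisons, Tg, Slc5a5 and Pax8 among them, and Epcam, Krt8 and Krt18 were not. Epcam was the 1 marker that no array showed well above background. Each array had 58717 spots, of which 56.8 to 68.2% per channel were well above background, and none was saturated. Over all tested probes the log2 ratios were spread most narrowly on siScramble replicate 2 (SD 0.174) and most widely on wt replicate 3 (SD 0.446). The siScramble replicate 3 array and the siScramble pool were on a second slide, and the other 8 arrays were on the first. The precision is limited by the number of arrays.

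The stretch just before the S100a4 start site is shown because FoxE1 is a DNA-binding factor whose known sites share the letters AAACA. It spans chr2:178388279-178388528 of the rat build GRCr8 on the plus strand and was taken from RefSeq. The capitals mark TATAAA, the letters of a TATA box, which begin 31 bases before the start.

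S100a4: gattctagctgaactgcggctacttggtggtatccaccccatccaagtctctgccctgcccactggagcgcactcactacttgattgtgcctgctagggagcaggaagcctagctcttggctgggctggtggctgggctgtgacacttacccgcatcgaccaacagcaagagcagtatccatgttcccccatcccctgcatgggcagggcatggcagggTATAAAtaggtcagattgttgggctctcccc

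RefSeq windows of 300 bases, 250 before and 50 after the start, were at hand for 7 members (S100a3, S100a4, S100a5, S100a6, S100a11, S100a13 and S100b). The letters TATAAA on the coding strand were in 1 of the 7, S100a4, and in 8.80% of all 33469 rat windows at hand. The FoxE1 core AAACA, searched on both strands (TGTTT is its complement), was in 2 of the 7 and in 51.9% of all windows. S100a4 was not among those that held it. The 2 windows with the core belonged to S100a5 and S100a6, and 30 bases around it are given with the core in capitals (chr2:178394986-178395015 and chr2:178398393-178398422, GRCr8, plus strand).

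S100a5: acaacacatataTGTTTtttttctttgttg
S100a6: ggctgggaggtgTGTTTgccttgcctcagg

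The core begins 123 bases before the S100a5 start and 132 bases before the S100a6 start. A pair of TTGG and AAACA, 5 to 30 bases apart in this order on either strand, was in none of the 7 members (0 of 7) and in 7.38% of all windows. Letters absent from so short a window do not speak on binding elsewhere.

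S100a4 RNA was higher in siFoxE1 PCCl3 on all 10 arrays. Against siScramble PCCl3 its log2 ratio was 1.04, 0.59, 1.27 and 1.39 in replicates 1 to 4, and 0.91 on the pooled array with the dyes swapped. Against wt PCCl3 it was 1.39, 1.03, 2.57 and 1.71 in replicates 1 to 4, and 1.33 on the pooled array. Replicate 2 was the lowest in both comparisons, and no array came near 0. The mean of the 4 cultures was 1.07 ± 0.354 (SD, n = 4) against siScramble and 1.67 ± 0.656 (SD, n = 4) against wt. Fitted with a dye term over the 5 arrays, the log2 fold change was 0.99 (SE 0.138), or 1.99-fold, against siScramble and 1.50 (SE 0.255), or 2.84-fold, against wt. Such a fitted value lies midway between the mean of the individual arrays and the pooled array. The pool therefore weighs as much in it as the 4 individual arrays together. On slide 1 alone (replicates 1, 2 and 4) the value against siScramble was 1.00, and with the slide as a block it was 0.82.

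**Figure D1:**
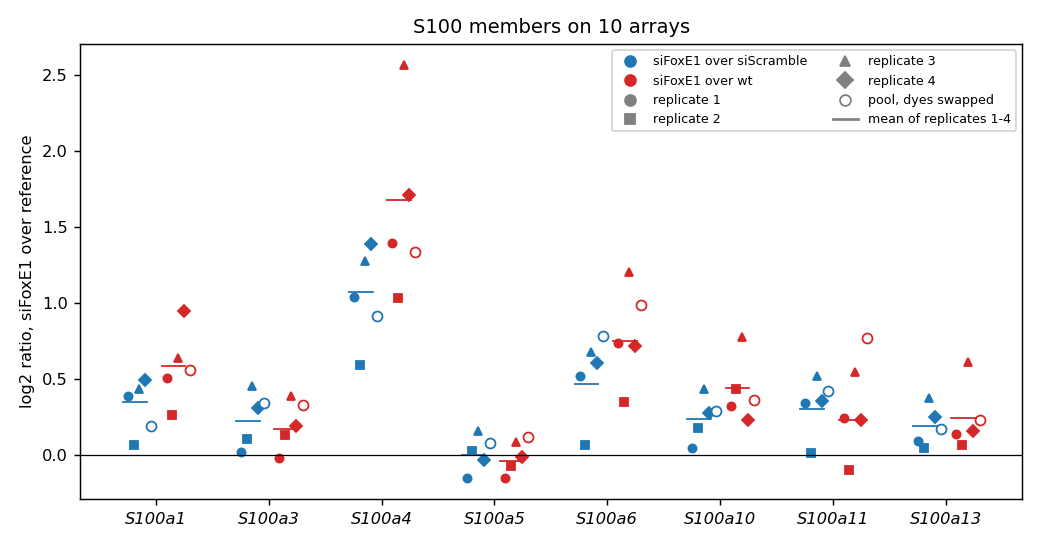
Log2 ratio of siFoxE1 over its reference (vertical axis) for the 8 S100 members tested in both comparisons (horizontal axis), one symbol per array, blue against siScramble and red against wt, with a line at the mean of replicates 1-4 and open circles for the pooled dye-swap arrays. S100a4 lies between 0.59 and 2.57, S100a6 between 0.06 and 1.20, and S100a5 on both sides of 0.

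Relative to the other probes of each array, S100a4 stood close to the top. It ranked 6, 59, 7 and 5 from the top in siScramble replicates 1 to 4 and 12 on the siScramble pool. These ranks are among the 18124 to 18139 tested probes with a value on the array. Against wt it ranked 14, 7, 6 and 21 in replicates 1 to 4 and 11 on the pool, among 18521 to 18526. Its ratio was therefore high on arrays with a narrow spread and on arrays with a wide one. On every one of the 10 arrays it was also above that of each other tested member. S100a4 was selected on these same ratios, so its place on the arrays is a description from which nothing is read.

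**Figure D2:**
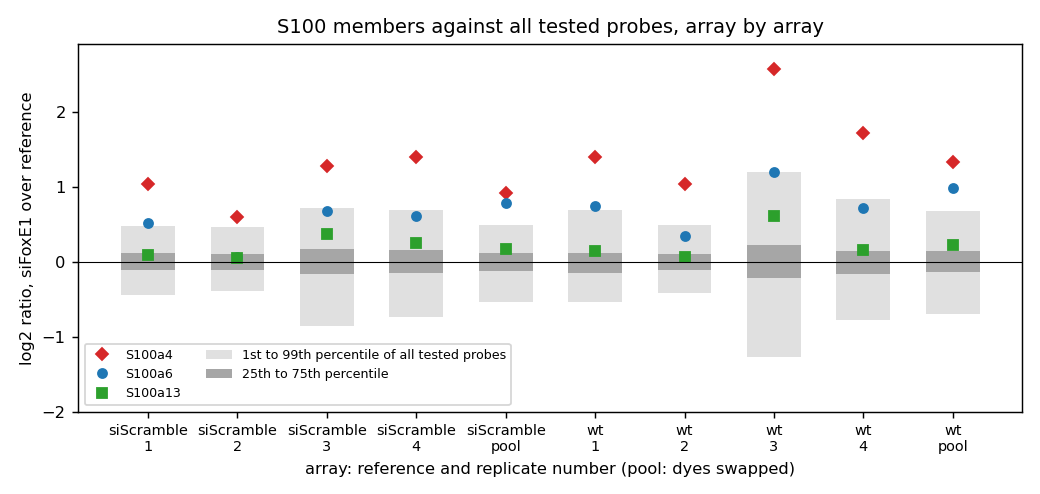
Log2 ratio of siFoxE1 over its reference (vertical axis) on each of the 10 arrays (horizontal axis), with light bars from the 1st to the 99th percentile and dark bars between the quartiles of all tested probes. S100a4 (red diamonds) is above the light bar on every array, S100a6 (blue circles) is above it on 4 arrays and inside it on the others, and S100a13 (green squares) stays inside the light bars.

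S100a6, known as calcyclin, is the gene that follows S100a5 in the cluster. Its log2 ratio against siScramble was 0.52, 0.06, 0.67 and 0.60 in replicates 1 to 4 and 0.78 on the pool. Against wt it was 0.74, 0.35, 1.20 and 0.72 in replicates 1 to 4 and 0.98 on the pool. All 10 values were above 0, again with the lowest in replicate 2. The fitted log2 fold change was 0.62 (SE 0.115, adjusted p = 0.166, limma with Benjamini-Hochberg adjustment) against siScramble and 0.87 (SE 0.146, adjusted p = 0.194) against wt, so neither passed 0.05. On slide 1 alone the value against siScramble was 0.39. With the replicate number as a block over all 10 arrays, the value against wt was 0.88 with an adjusted p = 0.00245, and over the alternatives run for that comparison the adjusted p went from 0.00245 to 0.521.

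S100a1, which is best known from muscle where it acts on calcium release, is the first gene of the cluster. Its log2 ratio against siScramble was 0.39, 0.07, 0.43 and 0.49 in replicates 1 to 4 and 0.19 on the pool. Against wt it was 0.50, 0.26, 0.63 and 0.95 in replicates 1 to 4 and 0.56 on the pool. All 10 values lay above 0, and those against wt exceeded their siScramble counterparts in each replicate number. The fitted log2 fold change was 0.27 (SE 0.0910, adjusted p = 0.294) and 0.57 (SE 0.125, adjusted p = 0.233).

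S100a10, the light chain of a complex with annexin A2 at the plasma membrane, lies apart from the cluster on chromosome 2. Its log2 ratio against siScramble was 0.04, 0.18, 0.43 and 0.28 in replicates 1 to 4 and 0.29 on the pool. Against wt it was 0.32, 0.43, 0.77 and 0.23 in replicates 1 to 4 and 0.36 on the pool. These 10 values were also above 0, and fitted log2 fold changes were 0.26 (SE 0.0844, adjusted p = 0.279) and 0.40 (SE 0.110, adjusted p = 0.233).

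S100a11, which binds annexin A1, gave 0.34, 0.01, 0.52 and 0.35 in replicates 1 to 4 against siScramble and 0.42 on the pool. Against wt it gave 0.24, -0.10, 0.55 and 0.23 in replicates 1 to 4 and 0.77 on the pool. Replicate 2 against wt was the 1 array of 10 below 0, and the pool with swapped dyes was above each of the 4 individual arrays there. The fitted log2 fold change was 0.36 (SE 0.0967, adjusted p = 0.230) against siScramble and 0.50 (SE 0.119, adjusted p = 0.233) against wt, and from the 4 individual arrays alone the latter was 0.23. RefSeq lists further copies and pseudogenes of S100a11 and a pseudogene of S100a10, so the signal of both probes may be shared with those copies.

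S100a13, which takes part in the release of fibroblast growth factor 1, lies next to S100a1. Its log2 ratio against siScramble was 0.09, 0.05, 0.37 and 0.25 in replicates 1 to 4 and 0.17 on the pool. Against wt it was 0.14, 0.07, 0.61 and 0.15 in replicates 1 to 4 and 0.23 on the pool. All 10 were above 0 but 8 of them were at or below 0.25. The fitted log2 fold change was 0.18 (SE 0.0810, adjusted p = 0.400) and 0.23 (SE 0.114, adjusted p = 0.331).

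The genes on either side of S100a4 in the cluster, S100a3 and S100a5, were close to background. S100a3, best known from hair follicles, was well above background in the siFoxE1 channel of 7 of 10 arrays, in the siScramble channel of 3 of 5 and in the wt channel of 2 of 5. Its log2 ratio ran from 0.02 to 0.45 against siScramble and from -0.02 to 0.39 against wt, with 9 of 10 arrays above 0. It passed the filter on dim probes against wt through the siFoxE1 channel only, and its fitted log2 fold changes of 0.28 (SE 0.0929, adjusted p = 0.287) and 0.25 (SE 0.0901, adjusted p = 0.257) were made with an offset of 50 on all signals, which draws the ratios of dim probes towards 0. Taken from the scanner software's own processed signals, which carry no such offset, the value against siScramble was 1.05 (adjusted p = 0.195), while it was 0.09 with the slide as a block and 0.14 on slide 1 alone.

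S100a5 had 2 probes. The brighter was well above background in 6 of 10 siFoxE1 channels, 4 of 5 siScramble channels and 4 of 5 wt channels, and its log2 ratio lay between -0.15 and 0.16 with 5 of 10 arrays above 0. The fitted log2 fold change was 0.04 (SE 0.0768) against siScramble and 0.04 (SE 0.0743) against wt. The dimmer S100a5 probe was well above background in 3 of 10, 3 of 5 and 1 of 5 channels and was tested against siScramble alone, at 0.15 (SE 0.0784, adjusted p = 0.480). The 2 probes of S100b, a marker of glial cells, and the probe of S100g, the vitamin D-dependent calbindin of the gut, were not tested. S100g and the first S100b probe were not well above background in any channel, and the second S100b probe was in 1, a wt channel.

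Counted over the family, none of the 9 member probes tested against siScramble (0 of 9) and none of the 8 tested against wt (0 of 8) had an adjusted p under 0.05 in limma. Over all probes the share that passed was 0.127% (23 of 18139) against siScramble and 0.0486% (9 of 18526) against wt, so few probes of any kind passed. At an unadjusted p under 0.05 there were 6 of 9 and 6 of 8 member probes, where all probes gave 13.1% and 17.1%. These counts include S100a4, which was chosen on these contrasts, and the one against wt includes S100a3, which passed the filter through the siFoxE1 channel, so they are descriptions from which nothing is read. Which members passed depended on the fit. Leaving S100a4 aside, S100a1 and S100a6 passed without the dye term in each comparison, with S100a11 against siScramble or S100a10 against wt. Without that term 671 probes of all kinds passed against siScramble and 805 against wt, beside 23 and 9 with it. In 1 fit of all 10 arrays S100a1, S100a6, S100a10 and S100a11 passed against wt, where 1632 probes of all kinds did.

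In direction, 7 of 9 member probes were above 0 on all 5 siScramble arrays, where all probes gave 8.12%, and 5 of 8 were above 0 on all 5 wt arrays, where all probes gave 9.39%. Above 0 on all 10 arrays were 5 of 8 (S100a1, S100a4, S100a6, S100a10 and S100a13), beside 4.62% of all probes and 6.27% of all genes taken by their brightest probe. The median fitted log2 fold change of the members was 0.27 against siScramble and 0.45 against wt, with a median of -0.01 over all probes in both. S100a4 and S100a3 are in these counts and medians too, which are descriptions for the same reason. S100a16, an S100 gene outside the set with 5 of 10 arrays above 0, is not in them.

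In the cluster, the S100a4 value stood between lower ones on both sides. The protein-coding genes in RefSeq order are S100a1, S100a13, S100a14, S100a16, S100a3, S100a4, S100a5, S100a6, S100a7a, S100a8 and S100a9. S100a16, which is no member, was well above background on all arrays and gave 0.10, -0.06, 0.10 and 0.07 in replicates 1 to 4 and 0.28 on the pool against siScramble. Against wt it gave -0.12, -0.00, -0.26 and -0.08 in replicates 1 to 4 and 0.24 on the pool. Its 10 values fell on both sides of 0, and its fitted log2 fold change was 0.17 (SE 0.0675, adjusted p = 0.350) and 0.06 (SE 0.0760, adjusted p = 0.690). Against wt each individual culture was below 0 (mean -0.12), so the fitted value there has the sign of the pool alone. Of the genes that border the cluster, Snapin, a SNARE-associated protein, had fitted values of 0.11 and 0.11, Chtop, a chromatin and RNA export factor, -0.10 and -0.07, and Pglyrp4, a peptidoglycan receptor, 0.15 and 0.11, against siScramble and wt in this order.

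**Figure D3:**
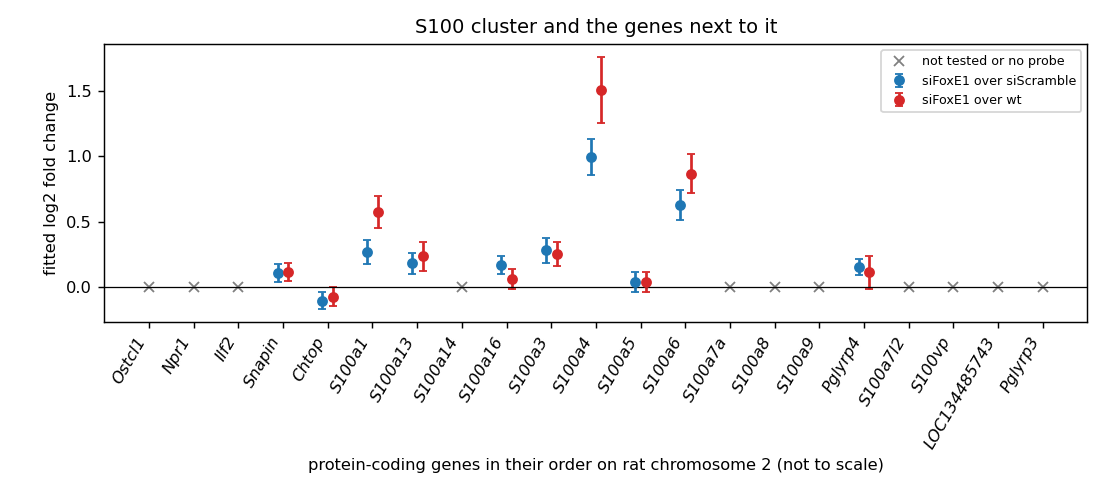
Fitted log2 fold change with its standard error (vertical axis) for the protein-coding genes of the S100 cluster and 5 genes on each side in RefSeq order on rat chromosome 2 (horizontal axis, not to scale), blue against siScramble and red against wt, with crosses for genes not tested or with no probe. S100a4 (0.99 and 1.50) and S100a6 (0.62 and 0.87) stand above S100a5 between them (0.04 and 0.04) and S100a16 (0.17 and 0.06).

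Of the 17 further genes with S100 domains that were looked for, 7 had a probe and S100a16 alone was tested in both comparisons. S100a7a, S100a7l2, S100z and S100vp were not well above background on any array. S100a8 and S100a9, the calprotectin subunits of granulocytes, were well above background in 1 and 3 channels over all arrays.

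The channel signals of single cultures showed how much S100a4 varied between cultures. In wt PCCl3 the log2 signal of the S100a4 probe, in Cy3 after normalisation, was 9.70, 11.48, 10.31 and 9.82 in cultures 1 to 4. In siScramble PCCl3, also in Cy3, it was 10.09, 11.93, 11.78 and 10.14. In siFoxE1 PCCl3, in Cy5, it was 11.11, 12.51, 12.95 and 11.52. Cultures 2 and 3 gave higher signals than cultures 1 and 4 in every condition, and culture 2 was highest in wt PCCl3. The range over 4 cultures was 1.78 in wt, 1.84 in siScramble and 1.85 in siFoxE1, where the median probe had 0.371, 0.409 and 0.406. The conditions overlapped over the cultures, since wt culture 2 lay above siFoxE1 culture 1, while within each of the 4 cultures the order was wt, siScramble, siFoxE1 from low to high. The siFoxE1 signal of 1 extract on its 2 arrays differed by at most 0.0936.

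In these signals, where wt and siScramble come from different arrays, the same order was seen within all 4 cultures for S100a6, S100a1 and S100a13. The ratios within arrays gave it for S100a6 and S100a1 too, but put siScramble below wt in number 4 for S100a13, by -0.10 on the log2 scale. For S100a6 the log2 signal was 12.56 ± 0.466 in wt, 12.92 ± 0.504 in siScramble and 13.29 ± 0.392 in siFoxE1 PCCl3 (SD, n = 4). For S100a1 it was 12.05 ± 0.268, 12.32 ± 0.305 and 12.61 ± 0.435 (SD, n = 4), and for S100a13 it was 10.58 ± 0.162, 10.69 ± 0.166 and 10.85 ± 0.205 (SD, n = 4). Between neighbouring conditions the means of S100a6, S100a1 and S100a13 differed by less than the larger of both SDs, as those of S100a4 did between wt and siScramble. These SDs are the spread between cultures and leave out the pairing by culture, so they do not measure the differences within cultures. S100a10 and S100a11 had at least 1 culture in which siScramble was below wt. Levels of different probes are not comparable, and the dye differs between siFoxE1 and both references.

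**Figure D4:**
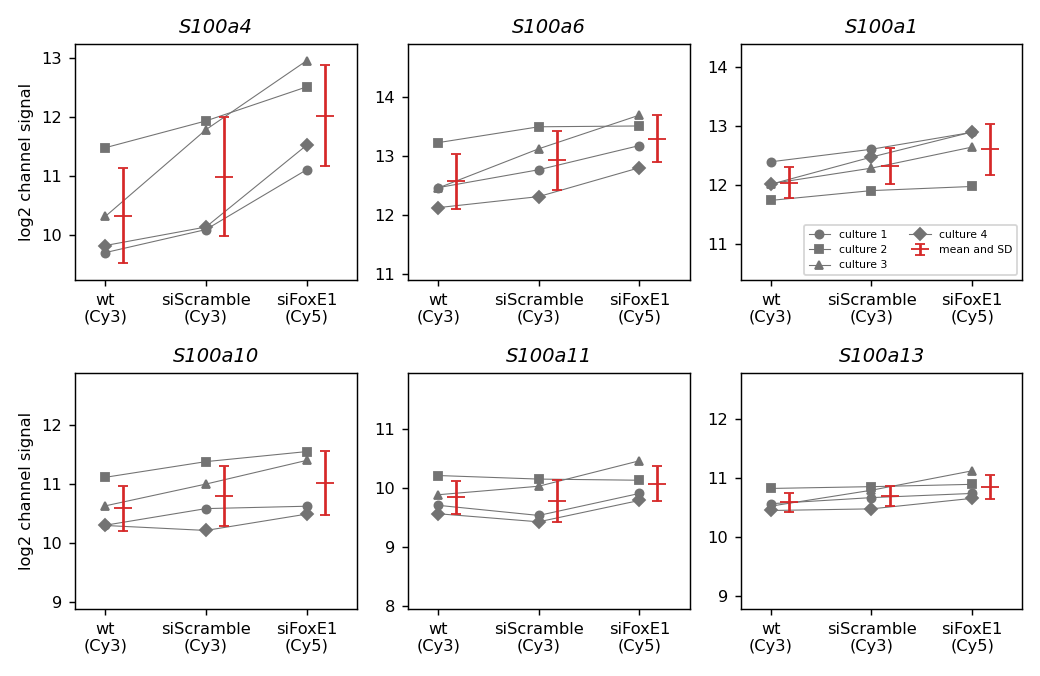
Normalised log2 channel signal (vertical axes, 4 log2 units each) of 6 members in wt, siScramble and siFoxE1 PCCl3 (horizontal axes, with the dye), grey symbols joined for cultures 1 to 4 and red bars for the mean and SD. The S100a4 lines run upward in all 4 cultures, from 9.70 to 11.48 in wt to between 11.11 and 12.95 in siFoxE1, with wide gaps between cultures.

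Because siScramble and wt PCCl3 were each set against the same siFoxE1 extracts, their own difference could be had indirectly. For S100a4, siScramble over wt was 0.35, 0.44, 1.29 and 0.32 in numbers 1 to 4 and 0.42 on the pools, all above 0, with number 3 highest. Number 3 sets the wt array with the widest spread against a siScramble array on the other slide, and the pools also differ in slide. The fitted difference was 0.57 (SE 0.253, adjusted p = 0.987), and with the replicate number as a block the adjusted p was 0.241. Without replicate 3 the fitted difference was 0.38. For S100a6 and S100a1 it was 0.27 (SE 0.157) and 0.27 (SE 0.127), and for the remaining tested members it lay between -0.04 and 0.18. Of the 8 members tested none passed (0 of 8), as for all probes, of which 0% (0 of 17804) passed. At an unadjusted p under 0.05 there was 1 of the 8, S100a4, beside 3.44% of all probes. This fit leaves out the pairing by siFoxE1 extract. With the replicate number as a block the SE was 0.160 for S100a4, 0.0937 for S100a6 and 0.0794 for S100a1, each smaller than without it. The ratios on which S100a4 was chosen also enter this difference, so nothing is read from that count.

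Among partners of S100 proteins, 14 of 17 genes had a probe and 12 were tested in both comparisons. None passed, beside 0.127% of all probes against siScramble and 0.0486% against wt. The median fitted log2 fold change was -0.01 against siScramble and 0.02 against wt. Anxa2, the annexin bound by S100A10, was above 0 on 10 of 10 arrays, between 0.09 and 0.45, with fitted values of 0.21 (SE 0.0641, adjusted p = 0.261) and 0.26 (SE 0.0660, adjusted p = 0.233). Anxa11, an annexin bound by S100A6, was also above 0 on 10 of 10, between 0.05 and 0.32. These were 2 of the 12 tested partners, beside 6.27% of all genes. No partner was below 0 on all 10 arrays, beside 6.39% of all genes. Nothing is read from such counts among 12 genes. Myh9, the myosin heavy chain bound by S100A4, had -0.26 and -0.14, with 8 of 10 arrays below 0. Cacybp and Sugt1, which bind S100A6, had -0.07 and -0.10, and -0.10 and -0.19. Ager, the receptor for secreted S100 proteins, had -0.02 and -0.13. Fgf1 had 0.01 and 0.03, Anxa1 0.07 and 0.00, and Anxa6 -0.05 and 0.02. Ahnak and Ppfibp1 were not analysed here.

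Other EF-hand genes did not share the direction of S100a4 as a group. Of 39 such genes 34 were tested in both comparisons and none passed, beside 0.127% and 0.0486% of all probes. Their median was -0.01 and 0.01. On all 10 arrays 3 of the 34 were above 0 and 2 were below 0, where all genes gave 6.27% and 6.39%. Among these, named after their values were seen, Pvalb had fitted values of 0.40 and 0.52, Efhd1 0.26 and 0.45, Myl12a -0.37 and -0.34, and Myl12b -0.26 and -0.28. Calm2 and Calm3, which encode calmodulin, had 0.23 and -0.02 against siScramble and 0.29 and -0.07 against wt. Sri, a regulator of calcium release, had -0.01 and 0.04, and Capns1, the small calpain subunit, -0.04 and -0.01. Efhd2 had 0.06 and 0.15, and Calu, a calcium-binding protein of the secretory pathway, -0.23 and -0.38. Calb1 was not well above background on any array.

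Since S100A4 is also a marker of fibroblasts, the mesenchymal list was set beside it. Of 19 genes 18 had a probe and 10 were tested in both comparisons. Twist1, Snai2, Dcn and Lum were not well above background on any array. None of the 10 passed, beside 0.127% of all probes against siScramble and 0.0486% against wt. Their median was 0.05 against siScramble and 0.04 against wt. The mean log2 signal of the 10 ran from 8.75 to 8.84 over the wt cultures, from 8.72 to 8.97 over siScramble and from 8.69 to 9.01 over siFoxE1. Vim, the intermediate filament of mesenchymal cells, had -0.03 and 0.07, Fn1 0.11 and 0.05, and Col1a1 0.14 and 0.13. Picked after their values were seen, Zeb2 had -0.24 and -0.32 and was the 1 gene of the 10 below 0 on all arrays, Tagln had -0.16 and -0.30, and Sparc had 0.16 and 0.32. Of 6 leukocyte markers tested none passed against wt, beside 0.0486% of all probes. Against siScramble 1 passed, Cd68, beside 0.127% of all probes. Cd68 had a fitted value of -0.66 (adjusted p = 0.0160) there and -0.09 against wt. That value rests on the pooled array, at -1.34, while the 4 cultures had 0.02 ± 0.0532 (SD, n = 4). This gene was named after its values were seen.

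The genes whose 10 ratios were most like those of S100a4, by the root mean square difference over 9566 genes compared, were outside the family. They were Adamts9, a secreted metalloprotease (0.245), Cdh1, which encodes E-cadherin (0.273), Folr1, a folate receptor (0.371), Prss8, a membrane serine protease (0.388), and RT1-Db1, a class II histocompatibility gene (0.417). The ratio of Adamts9 ran from 0.67 to 2.29 and that of Cdh1 from 0.71 to 1.81, beside 0.59 to 2.57 for S100a4. In the same order S100a6 was number 46, at 0.736, and S100a1 number 218, at 0.950. S100a10 was number 482, S100a11 number 593, S100a13 number 1019, S100a3 number 1204 and S100a5 number 4298. The measure takes in the size of the ratios as well as their pattern over arrays, and it is a description.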

How the data were processed

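RNA levels were read from 10 Agilent rat arrays that carry 2 dyes each. The scans had been quantified by the authors in Feature Extraction (version 10.7.3.1), and the deposited intensities used here are median spot and background signals of each dye. The deposited log10 ratios of red over green are from the same software. A value table of the authors holds normalised log2 ratios, for which the submitters' processing notes name limma 3.2.3. Its pooled columns were already turned to siFoxE1 over reference.

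Control spots and outlier spots, the latter 1.25 to 1.60% of an array, did not enter. Background correction was by normexp (offset 50), and signals were then normalised by loess and quantiles, averaged per probe and tested in limma 3.58.1 (R 4.3.3), each comparison on its 5 arrays with a dye term, where a probe was well above background on at least 3 arrays in 1 channel. The siScramble vs wt difference came from 1 fit of all 10 arrays. Ratios were turned to siFoxE1 over reference by the dyes of the labels. The study's design drawing shows the dyes the other way round. Under the labels Foxe1 was low in the siFoxE1 channel. Channel levels were taken after loess and Aquantile.

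The members and gene lists were chosen with earlier results of these data known. Named were the members, Foxe1, the other S100 genes, set members of each list, the genes next to the cluster and the 5 genes most like S100a4. Same numbers pair the arrays, since the design drawing gives them 1 siFoxE1 extract. Deviations correlated at r = 0.618, 0.757, 0.764 and 0.406 for numbers 1 to 4 and at -0.651 to 0.506 between other numbers, across probes. The fits were tested on simulated data. The alternatives concerned background, normalisation, dye term, arrays, filter, variance model, block, slide and replicates. Plots were drawn in matplotlib 3.10.9, and tables were made in pandas 2.3.3 under Python 3.11.15. Some genes of these lists are not reported here.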

Additional observations from a re-analysis of the deposited data

Results flagged for a closer look

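The log2 ratio of S100a13, siFoxE1 over wt, stood apart in replicate 3. It was 0.61 there and between 0.07 and 0.15 in the other 3 cultures, and the gap to the nearest of them was 0.837 of the whole range. Over the 45 groups of 4 arrays or cultures looked at for the members, 1 passed this limit, where chance gives about 5% of groups. The same array had the widest spread of ratios over all probes, with an SD of 0.446. Whether that spread had a part in the S100a13 value was not tested.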

How the results depend on the processing

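The fitted S100a4 value stayed between 0.82 and 1.07 against siScramble and between 1.36 and 1.68 against wt over all alternatives run, and no tested S100 member but S100a5 changed sign against either reference. How many S100 member probes passed did change. These counts are descriptions. S100a4 is in each of them above 0 and was chosen on the same ratios. Its place in a count is therefore no test result, and nothing is read from it. Against siScramble the count was 0 with all 10 arrays in 1 fit. It was 4 without the dye term and 4 with the authors' value table, in both with S100a1, S100a6 and S100a11 beside S100a4. The count was 1 in the 4 individual arrays alone, with robust variances and an intensity trend, and on slide 1 only. No member other than S100a4 passed in those fits. Against wt the count was 5 in 1 fit of all 10 arrays, both without and with the replicate block. Beside S100a4 it held S100a1, S100a6, S100a10 and S100a11. It was 4 without the dye term and 4 with the authors' value table, in both with S100a1, S100a6 and S100a10 beside S100a4. In the 4 individual arrays alone it was 1, and no member other than S100a4 passed. Leaving out 1 replicate gave 0 to 2 in each comparison. The count was 2 without replicate 2 against siScramble and without replicate 3 against wt, with S100a6 beside S100a4. The replicate block changed no call against siScramble or between siScramble and wt, with 0 members in both. Over all probes the count against siScramble went from 0 (processed signals) to 671 (no dye term) and against wt from 0 (processed signals, and without replicate 4) to 1632 (1 fit of all 10 arrays), beside 23 and 9. Between siScramble and wt it went from 0 to 21 (paired differences). With the slide as a block the siScramble values of S100a3, S100a10 and S100a13 were 0.09, 0.10 and 0.03. The cause of these changes was not tested. The dimmer members S100a3 and S100a5 are limited by their low signal over background.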
